A study of Mus musculus with 6 samples.

Results

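Interferon signalling starts at cell-surface receptors and ends at DNA-binding factors, and 9 genes of that route were followed here in mouse tumour cells with and without Ki-67. They are the receptor chains Ifnar1, Ifnar2, Ifngr1 and Ifngr2, the kinases Jak1 and Tyk2, and the factors Stat2, Irf9 and Irf1. They were chosen by name, as a list, out of the 54146 genes counted, and all 9 were among the 13755 genes with enough reads to be tested. Other genes of the route were not analysed here, apart from the related lists described after the 9.

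The cells were 4T1, an established mammary carcinoma line of the BALB/c mouse strain. The groups were Ki-67 knockout clone 1 (Mki67-/-), Ki-67 knockout clone 2 (Mki67-/-) and wild-type (WT) 4T1 cells, with 2 libraries each, and no group was labelled as treated with an interferon or any other agent. Each knockout group is 1 clone, so an effect of losing Ki-67 and a difference between clonal lines cannot be told apart. The clones share the same WT libraries, so their 2 comparisons with WT are not independent of each other.

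Type I interferons bind a receptor made of IFNAR1 and IFNAR2, which carries the kinases TYK2 and JAK1. The kinases phosphorylate STAT proteins, and STAT2 then enters the nucleus in a complex whose DNA contacts are made largely by IRF9, at sequences called interferon-stimulated response elements (ISRE). Interferon gamma uses IFNGR1 and IFNGR2 instead, acts through sequences called gamma-activated sites (GAS), and induces IRF1, itself a factor that switches on antigen-presentation and antiviral genes; Stat2, Irf9 and Irf1 are therefore both parts of the route and known targets of it.

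Reads assigned to genes numbered 10428970 to 22658499 per library, and the 9 genes had 144 to 3558 reads each in a library. Mki67 itself had 85.8 and 103 CPM (counts scaled by library size) in clone 1, 39.9 and 52.7 CPM in clone 2, and 736 and 647 CPM in WT, in the order given by the labels. The 2 WT libraries differed more from each other than the libraries of either clone did (a chi-square of 17.7 for each degree of freedom in clone 1, 25.0 in clone 2 and 78.8 in WT), so results that rest on 1 WT library are also given without it. Of 13 mammary epithelial markers 8 were tested, of which 4 were higher and 4 not called in the mean of both clones. Over all genes tested 26.6% were higher. Epcam, Cdh1, Krt8 and Krt18 were read at 229 CPM or more in every library, while Krt5 and Elf5 had no read. Of 23 immune cell markers 13 had no read, Adgre1 and Cd3e among them, and Ptprc stood at 0.0441 to 0.118 CPM in the knockout libraries and at 0 in WT. The 3 immune markers tested, Csf1r, Cd14 and Cd68, were all called in the mean of both clones, 2 higher and 1 lower. Over all genes tested 26.6% were higher and 29.4% lower. The immune list summed to 12.5 and 13.0 CPM in clone 1, 29.3 and 25.5 CPM in clone 2, and 24.3 and 22.6 CPM in WT. Of 13 fibroblast and endothelial markers 1 was tested, Pdgfra, which fell by 1.44 on the log2 scale in the mean of both clones and accounts for most of the list's summed 14.8 to 15.0 CPM in the knockout libraries and 39.7 to 39.8 CPM in WT.

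The 3 genes that fell furthest were the factors Irf1, Stat2 and Irf9, and their promoters are shown because each is a known interferon target. The windows run from 250 bases before to 50 bases after the gene start in RefSeq (GRCm38.p6). Capitals mark a match to the core of an ISRE, written as GAAA, any 2 bases and GAAA again, or to TTCNNNGAA, the core of a GAS, where N is any base. Both were searched on both strands.
Stat2, chr10:128270248-128270547, plus strand: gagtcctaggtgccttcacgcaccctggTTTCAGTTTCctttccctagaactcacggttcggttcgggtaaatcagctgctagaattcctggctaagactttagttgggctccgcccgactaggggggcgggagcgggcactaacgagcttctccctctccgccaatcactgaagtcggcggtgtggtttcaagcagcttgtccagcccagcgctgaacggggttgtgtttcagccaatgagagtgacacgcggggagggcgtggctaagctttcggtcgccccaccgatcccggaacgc
Irf1, chr11:53769764-53770063, plus strand: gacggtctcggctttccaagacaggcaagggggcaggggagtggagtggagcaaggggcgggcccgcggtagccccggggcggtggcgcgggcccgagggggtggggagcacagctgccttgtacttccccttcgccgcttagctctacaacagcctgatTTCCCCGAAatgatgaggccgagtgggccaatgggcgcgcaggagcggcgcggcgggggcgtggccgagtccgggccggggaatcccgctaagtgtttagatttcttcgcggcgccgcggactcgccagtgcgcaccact
Irf9, chr14:55603735-55604034, plus strand: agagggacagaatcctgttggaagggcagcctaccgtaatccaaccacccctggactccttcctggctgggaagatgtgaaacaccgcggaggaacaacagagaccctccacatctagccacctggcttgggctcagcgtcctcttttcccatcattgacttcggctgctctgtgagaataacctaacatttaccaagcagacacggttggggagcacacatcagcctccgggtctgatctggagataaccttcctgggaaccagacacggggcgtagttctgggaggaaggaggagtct
Stat2 held the only ISRE match among the 9 genes, on the minus strand, with its first base at -222 from the gene start. Irf1 held a GAS match with its first base at -90, and its second RefSeq window held neither motif. The window of Irf9 shown held neither, nor did a second RefSeq window of that gene, so these letters are not in the 2 windows searched. GAS matches also lay at -5 in Ifnar1 (TTCACGGAA) and at -214 in Ifnar2 (TTCCTGGAA), and the windows of Ifngr1, Ifngr2, Jak1 and Tyk2 held neither motif. Among 32851 RefSeq promoters of the same length 3.44% held the ISRE letters and 8.30% the GAS letters. Counted by gene, over 27025 genes, the shares were 3.99% and 9.55%. A match is a string of letters, not a measured binding site.

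Across the 9 genes, the mean of both clones against WT showed 6 lower, 0 higher and 3 that did not pass the test, with a median log2 fold change of -0.48. Over all genes tested 56.0% were called, 29.4% lower and 26.6% higher, with a median of -0.02. A call here is a Benjamini-Hochberg adjusted p under 0.05 in edgeR's quasi-likelihood test, adjusted over all 13755 genes. Irf1, Stat2, Irf9, Ifngr1, Tyk2 and Ifnar2 were called lower, and Ifngr2, Jak1 and Ifnar1 were not called. In 5 of the 9 genes, Ifngr1, Tyk2, Stat2, Irf9 and Irf1, all 4 knockout libraries lay below both WT libraries, a pattern held by 30.1% of all genes tested. The same 5 were called lower in each clone taken alone, against 20.0% of all genes tested. These are bulk libraries, in which fewer cells expressing a gene and less RNA per cell cannot be told apart.

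**Figure D1:**
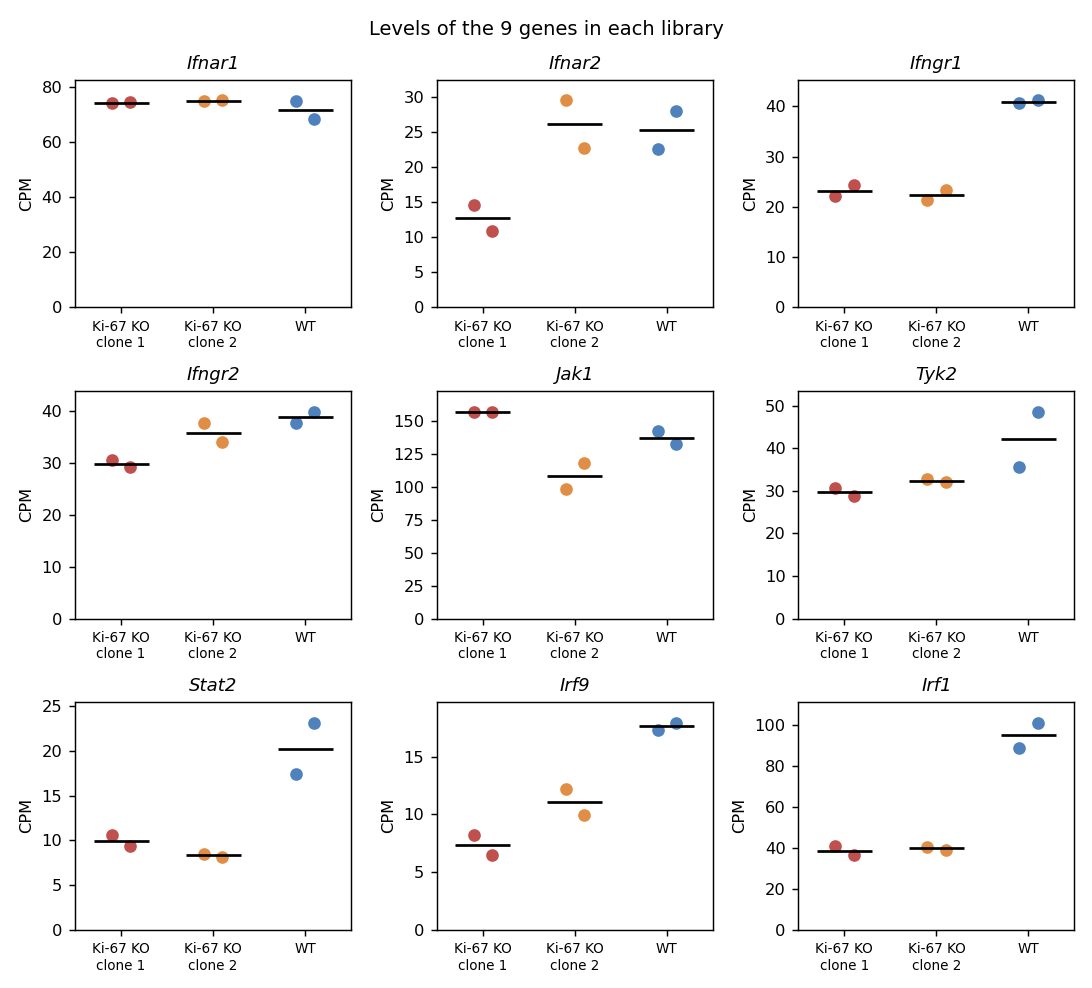
CPM of each of the 9 genes in every library (points, 2 per group) with the group mean (line), for Ki-67 knockout clone 1, Ki-67 knockout clone 2 and WT, each panel with its own axis from 0. Irf1, Stat2, Irf9, Ifngr1 and Tyk2 lie lower in all 4 knockout libraries than in both WT libraries, Ifnar2 is low in clone 1, and Ifnar1 is at 68.3 to 75.2 CPM in all 6 libraries.

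The receptor chains did not move as a group. Ifnar1 (ENSMUSG00000022967; GRCm38 chromosome 16, 91485238 to 91507441, plus strand), which holds TYK2 at the type I receptor, had 74.2 and 74.5 CPM in clone 1, 75.1 and 75.2 CPM in clone 2, and 75.0 and 68.3 CPM in WT. The values of clone 1 overlapped those of WT and the values of clone 2 lay only just above them. Its log2 fold change was 0.06 in clone 1 (SE 0.11, adjusted p = 0.714) and 0.07 in clone 2 (SE 0.11, adjusted p = 0.629).

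Ifnar2 (ENSMUSG00000022971; chromosome 16, 91372783 to 91405589, plus strand), the chain that binds type I interferon most tightly and holds JAK1, had 14.6 and 11.0 CPM in clone 1, 29.6 and 22.8 CPM in clone 2, and 22.6 and 28.0 CPM in WT. Both clone 1 libraries lay below both WT libraries, and the clone 2 libraries overlapped the WT pair. Clone 1 had a log2 fold change of -0.99, a call (SE 0.17, adjusted p = 0.000207), while the value in clone 2 was 0.04 (SE 0.17, adjusted p = 0.871). The call for the mean of both clones (-0.48, SE 0.15, adjusted p = 0.0116) joins a fall in clone 1 with no called change in clone 2, and it was lost without WT replicate 2 (-0.30, adjusted p = 0.186) or without clone 2 replicate 2 (-0.40, adjusted p = 0.0663). A predicted gene on the same strand, Gm21970, shares exon bases with Ifnar2 and had no read, and reads in the shared bases are not counted for either gene.

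Ifngr1 (ENSMUSG00000020009; chromosome 10, 19591949 to 19610229, plus strand), the chain that binds interferon gamma, had 22.1 and 24.3 CPM in clone 1, 21.3 and 23.4 CPM in clone 2, and 40.7 and 41.2 CPM in WT. All 4 knockout libraries stood close together and well under the WT pair. It fell by 0.82 on the log2 scale in clone 1 (SE 0.13, adjusted p = 5.24e-05) and by 0.87 in clone 2 (SE 0.13, adjusted p = 2.74e-05). The genes of chromosome 10 also lay low: the median log2 fold change over the 647 tested there was -0.41 in clone 1 and -0.36 in clone 2. With each chromosome's median removed, the change of Ifngr1 in the mean of both clones was -0.46 (adjusted p = 0.00197) in place of -0.85 (adjusted p = 5.46e-06).

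Ifngr2 (ENSMUSG00000022965; chromosome 16, 91547072 to 91565623, plus strand), the partner chain that brings its kinase to the interferon gamma receptor, had 30.5 and 29.2 CPM in clone 1, 37.6 and 34.0 CPM in clone 2, and 37.6 and 39.9 CPM in WT. Only the clone 1 libraries lay apart from WT. It fell in clone 1 by 0.38 on the log2 scale (SE 0.12, adjusted p = 0.0180), and the value in clone 2 was -0.12 (SE 0.12, adjusted p = 0.449). The clone 1 call was lost without WT replicate 2 (-0.33, adjusted p = 0.0597), without clone 1 replicate 1 (-0.41, adjusted p = 0.0873) and without clone 1 replicate 2 (-0.34, adjusted p = 0.169). It was lost as well with no filter on low counts (-0.30, adjusted p = 0.104).

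The kinases showed small changes. Jak1 (ENSMUSG00000028530; chromosome 4, 101152367 to 101265282, minus strand), which serves both interferon receptors and many cytokine receptors, had 157 and 156 CPM in clone 1, 98.1 and 118 CPM in clone 2, and 142 and 132 CPM in WT. Clone 1 lay above WT and clone 2 below it, without overlap. The rise in clone 1 did not pass the test (0.19, SE 0.12, adjusted p = 0.194), and the fall in clone 2 did (-0.34, SE 0.12, adjusted p = 0.0246). That call was lost without WT replicate 1 (-0.28, adjusted p = 0.0727), without clone 1 replicate 2 (-0.34, adjusted p = 0.0520) or without clone 2 replicate 1 (-0.21, adjusted p = 0.208). It was lost as well with the chromosome medians removed (-0.19, adjusted p = 0.205), with no filter on low counts (-0.27, adjusted p = 0.115) and with only clone 2 and WT in the fit (-0.33, adjusted p = 0.0599).

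Tyk2 (ENSMUSG00000032175; chromosome 9, 21104068 to 21131243, minus strand), the kinase held by IFNAR1, had 30.8 and 28.7 CPM in clone 1, 32.9 and 32.0 CPM in clone 2, and 35.6 and 48.7 CPM in WT. The WT libraries lay above all 4 knockout libraries, but they also differed from each other by more than the nearer one did from clone 2. Tyk2 fell in clone 1 (-0.51, SE 0.14, adjusted p = 0.00722) and in clone 2 (-0.39, SE 0.14, adjusted p = 0.0322). Without WT replicate 2 neither call held: clone 1 stood at -0.26 (adjusted p = 0.134) and clone 2 at -0.13 (adjusted p = 0.454). The clone 1 call was also lost without clone 1 replicate 2 (-0.45, adjusted p = 0.0553), and the clone 2 call without clone 2 replicate 1 (-0.40, adjusted p = 0.133) or replicate 2 (-0.38, adjusted p = 0.145). The clone 2 call was lost too with the chromosome medians removed (-0.24, adjusted p = 0.168), under DESeq2's Wald test (-0.38, adjusted p = 0.0584) and with no filter on low counts (-0.32, adjusted p = 0.0685).

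The 3 transcription factors were lower in both clones. Stat2 (ENSMUSG00000040033; chromosome 10, 128270559 to 128292849, plus strand), the STAT protein particular to interferon signalling, had 10.6 and 9.31 CPM in clone 1, 8.48 and 8.16 CPM in clone 2, and 17.4 and 23.1 CPM in WT. Every knockout library was under both WT libraries. Stat2 fell by 1.04 on the log2 scale in clone 1 (SE 0.17, adjusted p = 8.37e-05) and by 1.30 in clone 2 (SE 0.17, adjusted p = 9.83e-06). It lies on chromosome 10, and with the chromosome median removed the change in the mean of both clones was -0.78 (adjusted p = 0.000244) in place of -1.17 (adjusted p = 3.65e-06).

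Irf9 (ENSMUSG00000002325; chromosome 14, 55603571 to 55610030, plus strand), the DNA-binding partner of STAT2, had 8.20 and 6.47 CPM in clone 1, 12.2 and 9.93 CPM in clone 2, and 17.4 and 18.0 CPM in WT. The 3 groups formed 3 separate steps, with clone 1 lowest and WT highest. Irf9 fell by 1.27 on the log2 scale in clone 1 (SE 0.17, adjusted p = 1.54e-05) and by 0.68 in clone 2 (SE 0.17, adjusted p = 0.00264). The clone 2 call was lost without clone 2 replicate 2 (-0.55, adjusted p = 0.0517). Rnf31, a ubiquitin ligase gene on the same strand that overlaps Irf9, moved the other way: it had 25.7 and 23.4 CPM in clone 1, 41.9 and 38.1 CPM in clone 2, and 20.0 and 22.4 CPM in WT, with a log2 fold change of 0.20 in clone 1 (adjusted p = 0.213) and a rise of 0.91 in clone 2 (adjusted p = 2.6e-05). Reads in the bases both genes share are counted for neither.

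Irf1 (ENSMUSG00000018899; chromosome 11, 53770014 to 53778374, plus strand) had the largest fall of the 9 genes in the mean of both clones. It had 40.8 and 36.4 CPM in clone 1, 40.6 and 38.9 CPM in clone 2, and 88.9 and 101 CPM in WT. The 4 knockout libraries were nearly equal, and all lay far under the WT pair. Irf1 fell by 1.30 on the log2 scale in clone 1 (SE 0.12, adjusted p = 3.36e-07) and by 1.26 in clone 2 (SE 0.12, adjusted p = 4.45e-07), which put the mean of both clones at 0.412 of the WT level. Its change for the mean of both clones ran from -1.36 to -1.09 and stayed called in all 16 alternatives run.

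**Figure D2:**
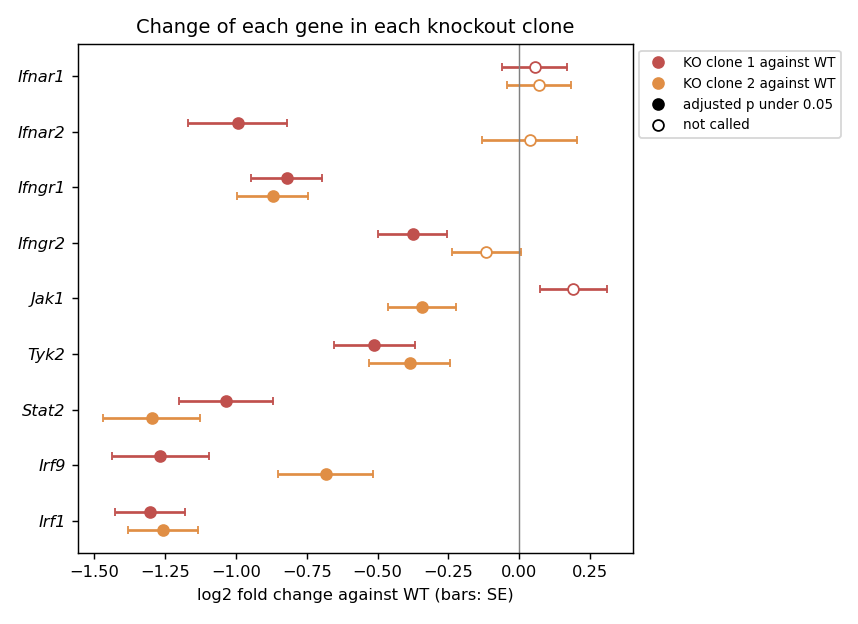
Log2 fold change of each of the 9 genes in knockout clone 1 and knockout clone 2, each against WT, with standard errors (bars); filled points passed the test at an adjusted p under 0.05 and open points did not. Irf1, Stat2, Irf9, Ifngr1 and Tyk2 are filled in both clones, Ifnar2 and Ifngr2 only in clone 1, Jak1 only in clone 2, and Ifnar1 in neither.

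Compared with WT one clone at a time, 7 of the 9 genes were called lower in clone 1 and 0 higher, where 50.9% of all genes tested were called, 26.2% lower and 24.7% higher. In clone 2 the counts were 6 lower and 0 higher, where 53.4% of all genes were called, 28.2% lower and 25.3% higher. The comparison of clone 2 with clone 1 showed 3 of the 9 genes called, 2 higher and 1 lower in clone 2. Its fold changes compare the clones alone, but its adjusted p-values use a spread, scaling and filter shared with the WT libraries. Of all genes tested 12.1% were called higher and 11.4% lower in clone 2. Ifnar2 was higher in clone 2 by 1.03 on the log2 scale (SE 0.17, adjusted p = 0.000713) and Irf9 by 0.58 (SE 0.17, adjusted p = 0.0223), and Jak1 was lower (-0.53, SE 0.12, adjusted p = 0.00506). All 3 calls were lost without clone 2 replicate 1, where Ifnar2 had 0.84 (adjusted p = 0.0504), Irf9 0.44 (adjusted p = 0.218) and Jak1 -0.40 (adjusted p = 0.0931). The call of Irf9 was also lost without clone 1 replicate 2 (0.43, adjusted p = 0.267), and those of Irf9 (0.26, adjusted p = 0.308) and Jak1 (-0.22, adjusted p = 0.210) with the chromosome medians removed. For the other 6 genes no difference between the clones passed the test; that of Irf1 was 0.04 (SE 0.12, adjusted p = 0.835), that of Ifngr1 -0.05 (SE 0.13, adjusted p = 0.810) and that of Stat2 -0.26 (SE 0.17, adjusted p = 0.286).

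Levels of different genes were set side by side as CPM per kilobase of exon, since longer genes collect more reads. In clone 1 Jak1 was highest with 21.7, followed by Ifnar1 with 12.5 and Irf1 with 9.70, and Irf9 was lowest with 1.39. In clone 2 Jak1 was highest with 14.9, followed by Ifnar1 with 12.6 and Irf1 with 10.0, and Stat2 was lowest with 1.40. In WT Irf1 was highest with 23.9, followed by Jak1 with 19.0, Ifngr1 with 14.4 and Ifnar1 with 12.1, and Stat2 (3.42) and Irf9 (3.35) were lowest. The order thus differed mainly at Irf1 and Ifngr1, which stood above Ifnar1 in WT and below it in both clones. Neighbours in the order whose libraries overlapped were Ifngr1 and Ifngr2 as well as Tyk2 and Ifnar2 in clone 1, Irf1, Ifngr2, Ifnar2 and Ifngr1 in turn in clone 2, and Stat2 and Irf9 in WT.

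Of 48 genes listed as targets of STAT2 and IRF9, 37 were tested. For the mean of both clones 33 of these were lower, 0 higher and 4 not called, with a median log2 fold change of -2.27. The share of all genes tested that were lower was 29.4%. Ly6e, an interferon-inducible surface protein, had 0.132 and 0.180 CPM in clone 1, 0.236 and 0.0863 CPM in clone 2, and 28.2 and 32.2 CPM in WT (-7.57, adjusted p = 3.5e-13). The oligoadenylate synthetase-like genes Oasl1 (-4.64, adjusted p = 3.13e-12) and Oasl2 (-4.99, adjusted p = 2.66e-11) and the antiviral gene Ifit2 (-2.94, adjusted p = 1.25e-10) fell too. The 4 that were not called, named after their values were seen, were Adar (0.05), Ifitm2 (0.28), Ifitm3 (-0.14) and Slfn5 (0.95).

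Of 38 genes listed as targets of interferon gamma and IRF1, 28 were tested. For the mean of both clones 22 were lower, 0 higher and 6 not called, with a median of -2.30, where 29.4% of all genes tested were lower. Psmb8, a catalytic subunit of the immunoproteasome, had 0.661 and 0.899 CPM in clone 1, 0.824 and 1.12 CPM in clone 2, and 27.8 and 41.9 CPM in WT (-5.31, adjusted p = 4.84e-12). The guanylate-binding protein genes Gbp2 (-4.42, adjusted p = 9.17e-12) and Gbp9 (-4.67, adjusted p = 2.14e-10) and the peptide transporter gene Tap2 (-2.22, adjusted p = 1.65e-09) fell as well. In clone 2 alone, Nos2, the inducible nitric oxide synthase, rose (2.06, adjusted p = 0.00575), and in clone 1 it fell (-3.40, adjusted p = 0.0237); it is named here after its values were seen. It had 1 and 0 reads in clone 1, 22 and 29 reads in clone 2, and 6 and 2 reads in WT.

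For clone 2 against clone 1, 1 of the 37 tested targets of STAT2 and IRF9 was higher and 4 were lower, with a median of -0.03. Of the 28 tested targets of interferon gamma and IRF1, 5 were higher and 0 lower, with a median of 0.11. Of all genes tested 12.1% were higher and 11.4% lower in this comparison, and targets with almost no reads in either clone could hardly differ between them.

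Both target lists passed the filter in part: 65 of 86 genes were tested, and the others together had 0.389 to 0.629 CPM in the knockout libraries, against 2.96 and 5.20 CPM in WT. The lists were put together with earlier results of these libraries known, so their direction is not independent evidence. The filter also favoured targets that were high in WT: 20 of the 65 reached its cutoff in fewer than 2 knockout libraries, and so needed the WT libraries to pass. All 20 were among the 55 tested targets called lower in the mean of both clones, so the counts and medians of the target lists are no measure of how far targets fell beside the 9 genes. A limit on the mean over all 6 libraries was then set at 12.0 CPM, that of Irf9, the lowest of the 9 genes. The limit was chosen after the values were seen. Of the 25 targets at or above it 17 were lower, the median log2 fold change was -0.68, and 6 lay below Irf1 (-1.28). Among the 8481 genes of all those tested at or above the same limit, 26.2% were lower, with a median of 0.05. The mean used for the limit includes the knockout libraries, so targets high in WT that fell far lay under it. Ly6e (30.2 CPM in WT) and Gbp2 (26.2 CPM in WT) are examples. The 25 targets were thus selected in part by their fall, and are no measure of how far targets fell beside the 9 genes.

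**Figure D3:**
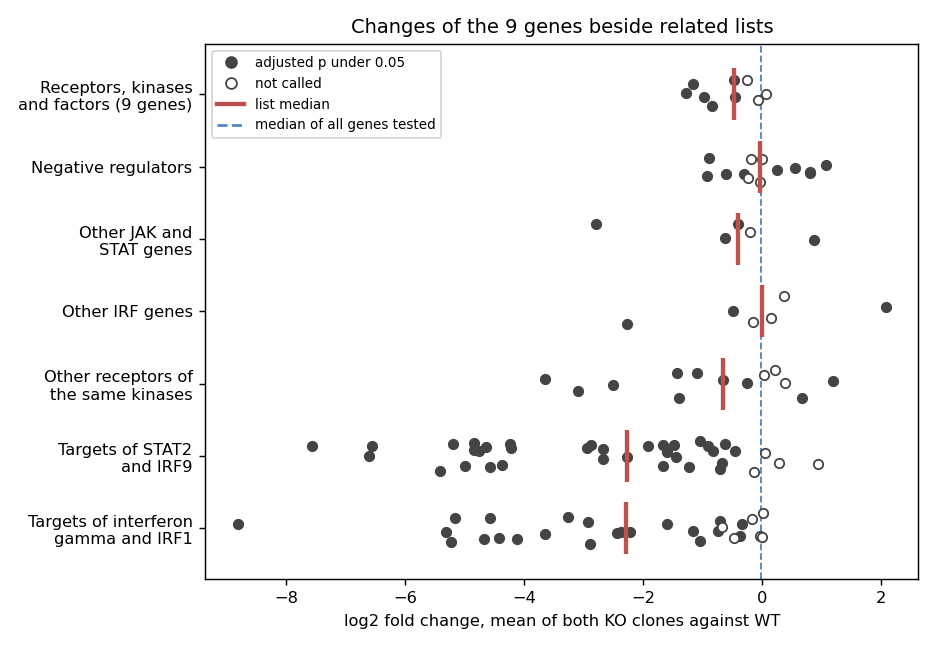
Log2 fold change of the mean of both knockout clones against WT for every tested gene (points) of the 9 genes and 6 related lists, filled where the adjusted p was under 0.05, with the median of each list (bar) and of all genes tested (dashed line, -0.02). The 9 genes lie between -1.28 and 0.06, and the tested genes of the 2 target lists, some of which needed the WT libraries to pass the filter, have medians of -2.27 and -2.30.

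No interferon gene was read at a level that could be tested. Of 21 ligand genes, 18 had no read in any of the 6 libraries, among them Ifnb1, and the list had 11 reads in all. Ifnz, a type I interferon gene, had 4 reads in clone 1, 1 in clone 2 and 1 in WT. Ifng, the gene of interferon gamma, had 3 reads in clone 1, 1 in clone 2 and 0 in WT, and Ifna13 had 1 read, in clone 1. A count of 0 allows up to 3 reads, which is 0.130 to 0.177 CPM in a knockout library and 0.177 or 0.296 CPM in a WT library. Differences in the ligands were not detectable at this depth. Reads that map to several places are not counted, so any shared between similar ligand genes would be missing as well.

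Negative regulators of the route moved both ways. Of 13 genes tested, 5 were higher, 4 lower and 4 not called in the mean of both clones, with a median of -0.04. Of all genes tested 26.6% were higher and 29.4% lower. Socs3, a feedback inhibitor of JAK kinases, had 18.0 and 18.2 CPM in clone 1, 23.3 and 23.5 CPM in clone 2, and 8.28 and 10.9 CPM in WT, and rose (1.08, SE 0.14, adjusted p = 7.47e-06). Ptpn1, a phosphatase that acts on JAK kinases, averaged 78.4 ± 0.565 CPM in clone 1, 91.8 ± 0.255 CPM in clone 2 and 48.6 ± 2.03 CPM in WT (SD, n = 2 each), and rose as well (0.80, SE 0.10, adjusted p = 6.14e-06). Pias1 (-0.93, SE 0.10, adjusted p = 1.19e-06) and Pias4 (-0.61, SE 0.12, adjusted p = 0.000503), which encode inhibitors of STAT proteins, fell.

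Other JAK and STAT genes were tested for 5 of 6 listed, and 3 were lower and 1 higher in the mean of both clones. The shares over all genes tested were 29.4% lower and 26.6% higher. Stat5a, which acts downstream of prolactin in the mammary gland, had 5.47 and 4.99 CPM in clone 1, 3.65 and 3.15 CPM in clone 2, and 24.0 and 33.7 CPM in WT (-2.79, SE 0.15, adjusted p = 3.77e-10). It fell further than any of the 9 genes. Stat6, the mediator of interleukin 4 signals, fell by 0.62 (SE 0.10, adjusted p = 4.75e-05), and Stat3, which carries signals of the interleukin 6 family, by 0.40 (SE 0.12, adjusted p = 0.00721). Jak3 rose (0.87, SE 0.15, adjusted p = 0.000153), and Stat5b was not called (-0.20, adjusted p = 0.149).

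Other interferon regulatory factors moved both ways. Irf7, a factor induced by type I interferon, had 0.661 and 0.405 CPM in clone 1, 0.412 and 0.604 CPM in clone 2, and 2.27 and 2.78 CPM in WT, and fell (-2.27, SE 0.31, adjusted p = 1.25e-05). Irf8, best known from myeloid cells, had 11.3 and 12.4 CPM in clone 1, 17.8 and 15.0 CPM in clone 2, and 2.56 and 3.78 CPM in WT, and rose (2.08, SE 0.19, adjusted p = 1.22e-07). Among immune markers, Csf1r also rose (1.16, adjusted p = 0.00164), Cd68 fell (-2.20, adjusted p = 1.92e-07), and 20 of the 23 were not tested. The remaining one, Cd14, was called higher in the mean of both clones (0.41). It had -0.33 in clone 1 (adjusted p = 0.154) and rose in clone 2 (1.15, adjusted p = 4.95e-05). The summed level of the list was 12.5 and 13.0 CPM in clone 1, 29.3 and 25.5 CPM in clone 2, and 24.3 and 22.6 CPM in WT, and its part in the change of Irf8 was not tested. Irf2 (0.16), Irf3 (-0.16) and Irf5 (0.37) were not called.

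Other receptors that use the same kinases, the interferon lambda receptor chain among them, had 13 of 20 genes tested. In the mean of both clones 8 were lower and 2 higher, with a median of -0.65. For all genes tested, 29.4% were lower, 26.6% were higher and the median was -0.02. Il13ra1, a chain of the interleukin 13 receptor, had 2.20 and 2.92 CPM in clone 1, 5.30 and 6.48 CPM in clone 2, and 36.2 and 31.0 CPM in WT (-3.10, SE 0.14, adjusted p = 5.4e-11). Il6ra, the interleukin 6 receptor, fell too (-1.39, SE 0.13, adjusted p = 2.03e-07), and so did Il11ra1 (-3.65, adjusted p = 6.7e-07), whose near-identical copy makes its count uncertain. Il4ra, the interleukin 4 receptor chain (1.19, SE 0.14, adjusted p = 3.32e-06), and Osmr, the oncostatin M receptor (0.68, SE 0.16, adjusted p = 0.00197), rose. Il10rb (0.04), which pairs with the interferon lambda receptor chain, was not called, nor were Il20rb (0.22) and Il12rb1 (0.39).

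Position along the chromosome added a further description. Ifnar2, Il10rb, Ifnar1 and Ifngr2 lie side by side among the tested genes of chromosome 16, and in clone 1 their log2 fold changes were -0.99, -0.15, 0.06 and -0.38. In clone 2 they were 0.04, 0.23, 0.07 and -0.12. Only Ifnar2 and Ifngr2 in clone 1 passed the test, so the cluster did not change as a block.

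Irf9 and its nearest tested neighbours Rnf31 (0.56, adjusted p = 0.000758) and Ipo4 (0.80) moved in opposite directions in the mean of both clones. Psme2 (-1.04) and Psme1 (-1.16), which encode subunits of a proteasome activator and lie on the far side of Rnf31, fell. The median of the 10 nearest tested protein-coding genes around Irf9 was -0.51 in clone 1 and 0.03 in clone 2, against -1.27 and -0.68 for Irf9 itself. Of all genes tested 29.4% were lower and 26.6% higher in the mean of both clones. Around Irf1 8 of the 10 neighbours were lower, with a median of -0.53 in the mean of both clones, and 2 fell more than Irf1 did. Around Stat2 6 of 10 were lower, with a median of -0.47, and 1 fell more than Stat2. Around Ifngr1 5 of 10 were lower, with a median of -0.36, and 2 fell more than Ifngr1. Around Tyk2 3 were lower and 5 higher, and the nearest on one side was Icam1, an adhesion gene on the interferon gamma target list, which fell by 2.44. For Jak1 7 of 10 neighbours were lower, for Ifnar1 and Ifngr2 4 each, and for Ifnar2 2. The part of the neighbourhood in the changes of the 9 genes was not tested beyond the fit with chromosome medians removed.

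**Figure D4:**
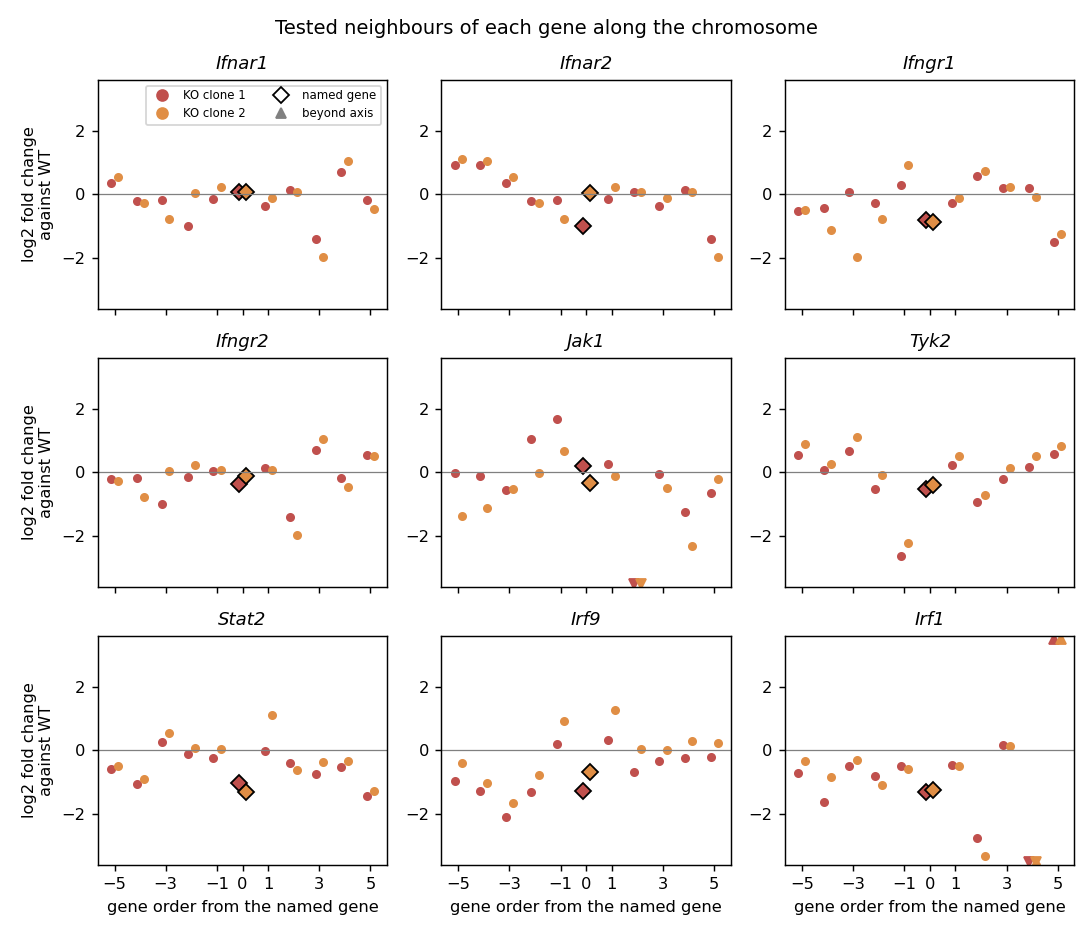
Log2 fold change against WT, in knockout clone 1 and knockout clone 2, of each of the 9 genes (diamonds, position 0) and of the 5 nearest tested protein-coding genes on each side (circles), in their order along the chromosome; triangles mark values beyond the axis. Irf9 lies between Rnf31 and Ipo4, which are higher in clone 2, and the genes around Irf1 are mostly below 0 in both clones.

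The genes whose pattern over the 6 libraries was most like each of the 9 were found by the distance between log2 CPM profiles centred on their mean, among 9212 genes. Irf1 was nearest to Tom1l2, Hexim1 and Flcn (distances 0.109, 0.124 and 0.124). Stat2 was nearest to H2afv, Hdac5 and Abcc5 (0.200, 0.232 and 0.232), and Irf9 to Pnpla7, Dirc2 and Urah (0.195, 0.209 and 0.213). Ifngr1 was nearest to Klf9, Mis18a and Spag5, Ifnar1 to Ei24, Grsf1 and Fam117b, and Ifnar2 to Zswim8, Rhobtb2 and Chst12. Ifngr2 was nearest to Smarcd2, P2rx4 and Stard3, Jak1 to Cdh1, Dzip3 and Pdzd8, and Tyk2 to Usp21, Scara3 and Ephb4. None of these was a member or a listed target, and all distances rest on the same 6 libraries. Among the 9 genes themselves the closest pairs were Ifngr2 with Tyk2 (0.364) and Stat2 with Irf1 (0.379).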

How the data were processed

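Strand-specific libraries of ribosomal-RNA-depleted total RNA were made from 4T1 cells, per the labels' protocols. FastQC, STAR 2.6.0c and GRCm38 are named per the submitters' processing notes; the annotation release is not given in the sources used here. The deposited values are raw read counts per gene, 1 table per library, not normalized. Column 4, the reverse-strand count, was used, since 92.3% to 95.7% of stranded reads on genes were there. The 4 summary rows of each table stayed out of all totals, which left 43.2% to 53.1% of reads as assigned to a gene. Reads that map to several places or to 2 genes are not in these counts.

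GENCODE M21 gave symbols and coordinates and matched 54079 of 54146 IDs. In R 4.3.3 with edgeR 4.0.16, filterByExpr kept 13755 genes, TMM scaled the libraries, and a robust quasi-likelihood fit with 1 term per group ran on all 6 libraries (3 residual degrees of freedom, common biological coefficient of variation 10.3%), with Benjamini-Hochberg adjustment and calls at 0.05. CPM used the scaled library sizes. The test was checked on simulated counts.

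The members and all 10 other lists were chosen with earlier results of these data known. Genes were named by rule: all 9 members, from each list up to 4 with the smallest adjusted p called in both clones in 1 direction, the few against their list, the 3 nearest profiles per member (average log2 CPM of 3 or more), and the nearest neighbours. One such gene is not reported here. The labels do not say if the 2 libraries of a group are separate cultures, so the p-values reflect library-to-library spread that may be technical; none was a copy of another within sampling noise. Floors of 3 counts cover counting error only. Alternatives were DESeq2 1.42.0 size factors and Wald test, upper-quartile scaling, limma-voom (limma 3.58.1), no filter, a filter of 1 CPM in 2 libraries, unstranded counts, a replicate block, a fit on the compared groups alone, a minimum change of 1.5-fold, chromosome medians removed, and each library left out.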

Additional observations from a re-analysis of the deposited data

Results flagged for a closer look

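In 3 of the 9 genes the effect in clone 2 differed from that in clone 1 by the test of the difference itself (edgeR's quasi-likelihood test, Benjamini-Hochberg adjusted over all genes tested). Ifnar2 was higher in clone 2 than in clone 1 by 1.03 on the log2 scale (adjusted p = 0.000713), with 29.6 and 22.8 CPM in clone 2 and 14.6 and 11.0 CPM in clone 1. Irf9 was higher in clone 2 by 0.58 (adjusted p = 0.0223), with 12.2 and 9.93 CPM in clone 2 and 8.20 and 6.47 CPM in clone 1. Jak1 was lower in clone 2, with a log2 fold change of -0.53 (adjusted p = 0.00506), and had 98.1 and 118 CPM in clone 2 and 157 and 156 CPM in clone 1. The libraries of the 2 clones did not overlap in any of the 3 genes, but these were picked by the test on the same values. How many of all genes tested show such a gap was not counted. Of all genes tested 23.5% were called between the clones. The chromosome medians for clone 2 and clone 1, each against WT, were 0.08 and -0.24 on chromosome 14, which holds Irf9, and -0.15 and 0.16 on chromosome 4, which holds Jak1. On chromosome 16, which holds Ifnar2, they were -0.10 and -0.06. With these medians removed the call of Ifnar2 held (1.07, adjusted p = 0.000666) and those of Irf9 and Jak1 did not. The call of Ifnar2 was lost with a minimum change of 1.5-fold in edgeR's test (adjusted p = 0.0768). Without clone 2 replicate 1 the difference of Ifnar2 was 0.84, and all 3 calls were lost.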

How the results depend on the processing

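No gene value changed sign between the main fit and an alternative where either was called. Uncalled values could change sign, and that of Ifnar2 in clone 2 against WT ran from -0.15 to 0.21. Of 166 counts of calls 10 moved by more than 1.5 times, and of 217 medians 98 by more than 1 replicate SD. Of 603 recomputed gene values 562 kept their side of the threshold, 39 lost a call and 2 gained one, both of them Ifngr2 in the mean of both clones (-0.32 with upper-quartile scaling, adjusted p = 0.0177; -0.26 with the 1 CPM filter, adjusted p = 0.0457). A minimum change of 1.5-fold left 4 of 9 genes lower in the mean of both clones in place of 6, as did leaving out WT replicate 2; it left 4 lower in clone 1 in place of 7, 3 lower in clone 2 in place of 6, and 0 higher and 0 lower between the clones in place of 2 and 1. With chromosome medians removed these last were 1 higher and 0 lower, and 4 genes were lower in clone 2. With 1 library left out they ran from 0 to 2 higher and from 0 to 1 lower, and targets called higher in the mean of both clones from 0 to 1 (1 without WT replicate 2). Upper-quartile scaling moved the median of all genes to -0.09. Same-numbered libraries did not deviate together (correlations -0.156, 0.0819 and 0.00474); a fit with the replicate number as a block gave the same 6, 7 and 6 lower counts for the mean, clone 1 and clone 2. With 2 libraries a group, the calls of Jak1, Tyk2 and Ifngr2 each depended on single libraries. So did the call of Ifnar2 in the mean of both clones, that of Irf9 in clone 2 and all 3 between the clones. The calls of Jak1 and Tyk2 in clone 2 depended also on the chromosome medians and the filter, and that of Ifngr2 in clone 1 on the filter.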
